A study of Homo sapiens with 9 samples.

Results

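The genes described here are the estrogen receptor gene ESR1, the progesterone receptor gene PGR and 8 genes known as estrogen targets in breast cancer cells, GREB1, TFF1, TFF3, PDZK1, CCND1, MYB, IGFBP4 and SERPINA1. They were chosen by name. Every probe whose gene name in the array files was 1 of these 10 was taken, which gave 19 probes among 58201, and the 10 genes stand among 43395 on the array, of which 20106 were tested. RNA was measured on 9 single-color microarrays of the human breast cancer cell line T47D, with 3 arrays for each of 3 stable lines. All 3 lines were transfected and selected. T47D-VC1 carries the empty vector, T47D-PA5 expresses incomplete PTH-AS and T47D-PA6 expresses full-length PTH-AS, a long noncoding RNA encoded near the parathyroid hormone gene. Each group is a single line. The lines were made with G418 selection, and those with PTH-AS vectors were chosen for high expression of it, so that a difference between groups cannot be told apart from a difference between selected lines. The cells grew in medium with serum, and the sources used here do not say whether steroid hormones were removed from it.

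Estrogen receptor alpha, the product of ESR1, is a nuclear receptor that binds estradiol and then activates genes with estrogen response elements, either directly or through partner factors such as FOXA1. PGR is one of the classical genes that it induces, and the progesterone receptor in turn acts as a transcription factor that modifies where the estrogen receptor binds. T47D is a luminal line known for carrying both receptors, and a probe for PGR reads the transcripts of both receptor forms, PR-A and PR-B, without telling them apart.

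Signals on these arrays come from probes of 60 bases, and 3 of them are shown because the results below turn on what they read. The ESR1 probe begins with the start codon of the receptor, in capitals, and gave another result than the brightest ESR1 probe. The PGR probe is the second of 2 that read this gene, and the TFF1 probe read the gene with the clearest difference. Each is written 5′ to 3′ as the files list it, on hg19, with the ESR1 probe at chr6:152129048-152129107 on the plus strand, the PGR probe at chr11:100912709-100912768 on the minus strand and the TFF1 probe at chr21:43783440-43783499 on the minus strand.
ESR1 probe A_24_P383478: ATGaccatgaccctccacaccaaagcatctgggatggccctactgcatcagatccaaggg
PGR probe A_23_P138938: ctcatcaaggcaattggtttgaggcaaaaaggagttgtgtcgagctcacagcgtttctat
TFF1 probe A_24_P322771: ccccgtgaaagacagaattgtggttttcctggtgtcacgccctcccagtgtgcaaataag

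Of the 19 probes, 17 lay well above background, as Feature Extraction software marks it, on each of the 9 arrays. The other 2, MYB probe A_33_P3311795 and SERPINA1 probe A_33_P3289659, were above it on none and were not tested. The brightest tested probe was taken for each gene, and signals are intensities after quantile normalization, which have no unit and are not compared between probes. The first replicates of the 3 lines shared a slide and were scanned in an earlier run than the others. The later run here stands for all scans after the first scan day, of arrays on slides 2 and 3. Over all genes the median absolute log2 difference was 0.09 to 0.11 between replicates 2 and 3 of a line, and 0.21 to 0.27 between replicate 1 and either of them, so the 10 genes are given with their values within each run. The sources do not say whether replicates are separate cultures, so p-values measure only the spread between these arrays. All 6 luminal markers (KRT8, KRT18, KRT19, KRT7, CDH1 and EPCAM) passed the background limit on every array, the basal markers KRT5 and TP63 on none and KRT14 on 3 of 9. Of the other markers, COL1A1, PTPRC, CDH5 and VWF passed it on every array, and COL1A2, DCN, CD3E and PECAM1 passed it on none. Of these only COL1A1 was called, lower in T47D-PA6 than in T47D-VC1 (log2 fold change -0.50, adjusted p = 0.020 in limma), and its part in the results was not tested. There were 0 probes named PTH-AS, so the arrays gave no check of the transgene. Bulk RNA was measured, and fewer cells with a transcript cannot be told apart from less of it per cell.

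Full-length PTH-AS was compared with the empty vector first. In T47D-PA6, 1 of the 10 genes was higher and 1 was lower than in T47D-VC1 at an adjusted p under 0.05 in limma. These were TFF1, 3.07-fold higher, and PGR, 2.09-fold lower. Over all genes tested, 4.69% were higher and 5.34% were lower in this comparison. In T47D-PA5, 0 of the 10 genes were called by limma against T47D-VC1, where 1.37% of all genes were higher and 0.298% lower. In that comparison only PGR and TFF1 had an unadjusted p under 0.05 in limma (0.0498 and 0.041). The share of all genes under that limit was not counted. The unpaired test of the study's methods, with an adjustment added here, called 0 of the 10, where it called 0.194% of all genes. Between T47D-PA6 and T47D-PA5, TFF1 was higher and PGR lower, 2 of the 10 genes, where 3.65% of all genes were higher and 6.06% lower. The comparisons with T47D-VC1 use the same control arrays, so their values are given side by side and not as separate support.

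**Figure D1:**
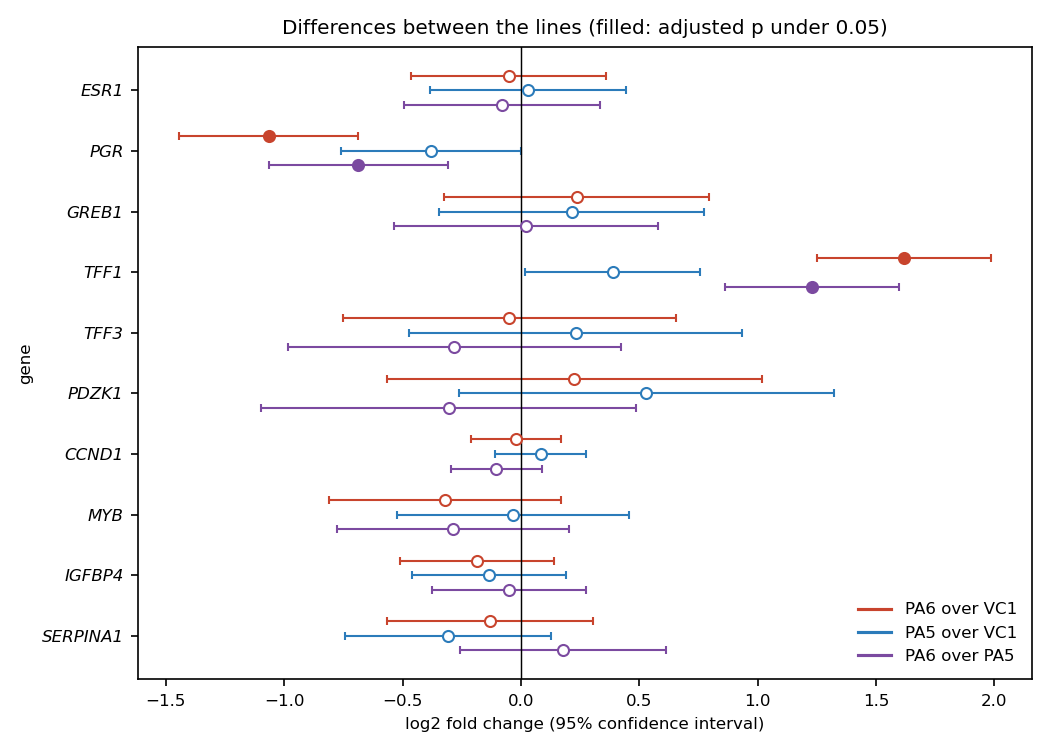
Log2 fold change of each gene in the 3 comparisons, with its 95% confidence interval from limma over 9 arrays (3 a line). Filled points have an adjusted p under 0.05. TFF1 lies to the right in PA6 over VC1 (1.62) and PA6 over PA5 (1.23), PGR lies to the left (-1.07 and -0.69), and the intervals of the other 8 genes cross 0 in all 3 comparisons.

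The estrogen receptor transcript itself did not pass the test in any comparison when read from its brightest probe, A_23_P309739, which lies near the end of the gene. Its signal was 3682, 2509 and 2363 in replicates 1, 2 and 3 of T47D-VC1. It was 2556, 3066 and 2955 in T47D-PA5. It was 3091, 2567 and 2467 in T47D-PA6. The 3 lines overlapped, and the first replicate of T47D-VC1 was the highest of the 9 arrays. The log2 fold change was -0.05 (95% interval -0.47 to 0.36) for T47D-PA6 over T47D-VC1 and 0.03 (-0.39 to 0.44) for T47D-PA5 over T47D-VC1. Within the earlier run the T47D-PA5 difference was -0.53 and within the later run 0.31, and the T47D-PA6 difference was -0.25 and 0.05.

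The probe over the start codon of ESR1 gave a different order of the lines. Its signal was 159, 148 and 150 in the T47D-VC1 replicates, 123, 109 and 106 in T47D-PA5, and 174, 152 and 164 in T47D-PA6. All arrays of T47D-PA5 lay below those of the other lines. With every tested probe fitted on its own in limma, this probe had a T47D-PA6 signal above that of T47D-PA5 by 0.54 on the log2 scale (SE 0.10, adjusted p = 0.015). In that fit 3.46% of all probes were higher and 6.45% lower between these lines, 4.43% and 6.12% in T47D-PA6 over T47D-VC1, and 1.29% and 0.332% for T47D-PA5 against T47D-VC1. The probe was not called against T47D-VC1 in T47D-PA5 (-0.44, adjusted p = 0.080) or in T47D-PA6 (0.10, adjusted p = 0.57). The remaining ESR1 probe, A_33_P3379356, ranged from 121 to 227 over the 9 arrays and was not called in any comparison. What sets these probes apart was not tested.

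PGR was lower in T47D-PA6 than in both other lines. With its brighter probe, A_32_P49199, the signal was 17129.8, 14117 and 14167 in T47D-VC1, and 9053, 13318 and 12909.5 in T47D-PA5. It was 7942, 6864 and 6849.96 in T47D-PA6. The lines did not overlap, and they stood in the order T47D-VC1, T47D-PA5, T47D-PA6 from high to low. T47D-PA6 over T47D-VC1 had a log2 fold change of -1.07 (SE 0.17, adjusted p = 0.0072 in limma). It was -1.11 within the earlier run and -1.04 within the later run. In the 22 alternative analyses it kept this direction and stayed under the threshold, between -1.13 and -0.89.

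The step between T47D-PA5 and T47D-PA6 was less secure. PGR differed by -0.69 (SE 0.17, adjusted p = 0.037 in limma), with -0.19 within the earlier run and -0.94 within the later one. With the slide as a block the adjusted p was 0.088, and the call was lost in 11 of the 22 alternative analyses, among them leaving out replicate 2 or 3 of any line. Between T47D-PA5 and T47D-VC1 the log2 fold change was -0.38 (adjusted p = 0.32). That difference was -0.92 within the earlier run and -0.11 within the later one. The first T47D-PA5 array lay below the mean of the other 2 of its line by -0.53, and the first T47D-VC1 array above that of its line by 0.28.

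The second PGR probe, shown above, lies in the ligand-binding part of the coding sequence. It gave 10107, 8040.4 and 8196 in T47D-VC1, and 6207, 7822 and 7724 in T47D-PA5. It gave 5609, 5258 and 5145 in T47D-PA6. The order of the lines was as with the first probe, again without overlap. On its own this probe was lower in T47D-PA6 than in T47D-VC1 by -0.71 (SE 0.13, adjusted p = 0.014 in limma), in a fit where 6.12% of all probes were lower, and it was not called between T47D-PA6 and T47D-PA5 (-0.44, adjusted p = 0.079).

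TFF1, which encodes a small secreted trefoil peptide and is a standard marker of estrogen receptor activity, was the only 1 of the 10 genes that was called higher. Its signal was 1234, 1410.1 and 1411 in T47D-VC1, and 1966, 1656 and 1692 in T47D-PA5. It was 5291, 3530.1 and 3808 in T47D-PA6. The lines did not overlap, with T47D-VC1 lowest and T47D-PA6 highest. T47D-PA6 was higher than T47D-VC1 by 1.62 on the log2 scale (SE 0.16, 95% interval 1.25 to 1.99, adjusted p = 0.0011 in limma) and higher than T47D-PA5 by 1.23 (SE 0.16, adjusted p = 0.0045).

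The size of the TFF1 difference depended on the run. T47D-PA6 exceeded T47D-VC1 by 2.10 within the earlier run and by 1.38 within the later one, and T47D-PA5 by 1.43 and 1.13. The 22 alternative analyses called it over T47D-VC1 at 1.38 to 1.73. Over T47D-PA5, 21 of 22 did, and the unpaired test of the methods gave an adjusted p of 0.061. T47D-PA5 lay above T47D-VC1 by 0.39, which was not called (adjusted p = 0.30 in limma). The other 126 tested genes within 5 Mb of the TFF1 probe had a median log2 fold change of 0.06 for T47D-PA6 over T47D-VC1.

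**Figure D2:**
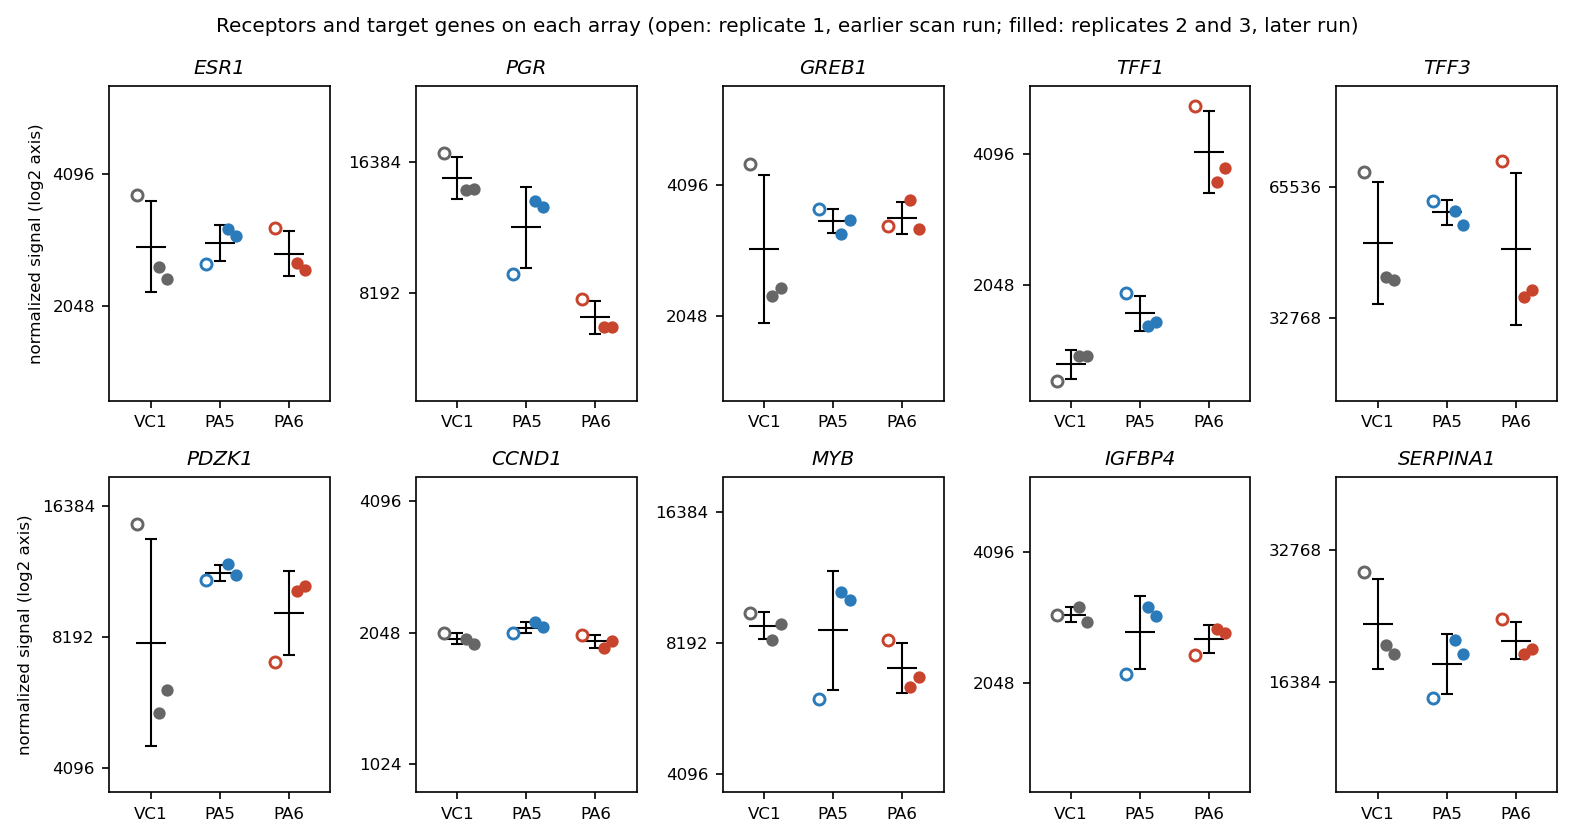
Normalized signal of each gene on each of the 9 arrays, on a log2 axis that differs between panels, for T47D-VC1, T47D-PA5 and T47D-PA6. Open points are replicate 1 (earlier scan run), filled points replicates 2 and 3 (later run), and the bar and whiskers are the geometric mean and 1 SD. TFF1 and PGR separate the lines, whereas in PDZK1, GREB1 and TFF3 the first T47D-VC1 array stands well above the other 2.

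TFF3, another trefoil peptide gene whose probes lie near TFF1 on chromosome 21, did not follow it with its brightest probe, A_23_P393099. That probe read 70746, 40704 and 40094 in T47D-VC1, and 60794, 57520.1 and 53504 in T47D-PA5. It read 74868, 36621 and 38051 in T47D-PA6. The first replicate was above the mean of the others in T47D-VC1 and T47D-PA6 (1.75-fold and 2.01-fold) and close to it in T47D-PA5 (0.13 on the log2 scale), and the lines overlapped. T47D-PA6 over T47D-VC1 came to -0.05 on the log2 scale (95% interval -0.75 to 0.65), and the 75th percentile shift turned its sign (0.02). Within the earlier and the later run it was 0.08 and -0.11, and T47D-PA5 over T47D-VC1 was -0.22 and 0.46. Probe A_33_P3334305 gave -0.02.

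The third TFF3 probe, A_24_P289208, which lies towards the start of the gene, was the exception. It read 986, 844 and 753 in T47D-VC1, and 943, 964 and 999 in T47D-PA5. It read 1287, 1146 and 1228 in T47D-PA6. All T47D-PA6 arrays lay above those of the other lines, and the probe on its own exceeded T47D-VC1 there by 0.51 (SE 0.12, adjusted p = 0.030 in limma), in a fit where 4.43% of all probes were higher. Over T47D-PA5 the difference was 0.33 (adjusted p = 0.12).

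**Figure D3:**
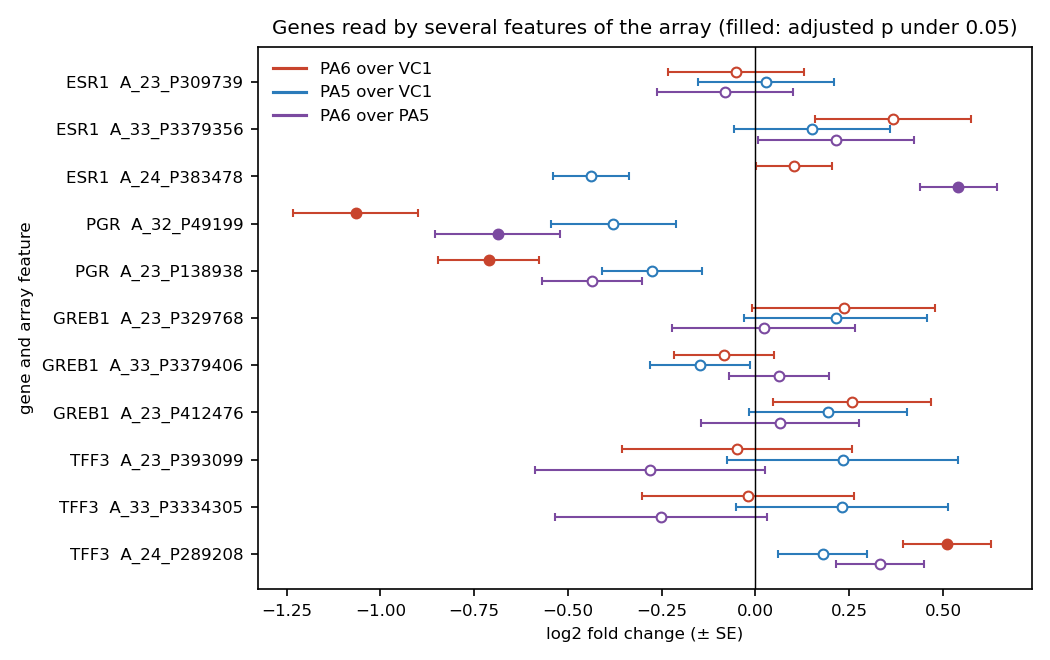
Log2 fold change with its SE for each tested probe of the 4 genes that have several, in the 3 comparisons, each probe fitted on its own in limma. Filled points have an adjusted p under 0.05. Both PGR probes lie to the left of 0 in every comparison, while ESR1 probe A_24_P383478 (0.54, PA6 over PA5) and TFF3 probe A_24_P289208 (0.51, PA6 over VC1) differ from the other probes of their genes.

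GREB1, an estrogen-induced cofactor of the receptor, was not called in any comparison. Its brightest probe, A_23_P329768, read 4567, 2276 and 2377 in T47D-VC1, and 3596, 3154 and 3398 in T47D-PA5. It read 3286, 3780 and 3244 in T47D-PA6. The first T47D-VC1 array was the highest of all 9 and the other 2 of that line were the lowest, so the lines overlapped. The log2 fold change was 0.24 (95% interval -0.32 to 0.79) for T47D-PA6 and 0.21 (-0.34 to 0.77) for T47D-PA5 over T47D-VC1. Within the earlier run they were -0.47 and -0.34, and within the later run 0.59 and 0.49. Without the first T47D-VC1 array GREB1 was called higher in T47D-PA6, at 0.56. The other GREB1 probes, A_33_P3379406 and A_23_P412476, gave -0.08 and 0.26 for T47D-PA6 over T47D-VC1, and neither was called.

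PDZK1, a scaffold protein gene that is induced by estrogen in breast cancer cells, had the widest spread between arrays of 1 line. It read 14850.2, 5469 and 6193 in T47D-VC1, and 11088, 12041 and 11346 in T47D-PA5. It read 7185, 10433 and 10719 in T47D-PA6. The first T47D-VC1 array was 2.55-fold above the other 2 of that line, and the lines overlapped except that every T47D-PA6 array was below every T47D-PA5 array. The log2 fold change was 0.23 (95% interval -0.57 to 1.02) for T47D-PA6 and 0.53 (-0.26 to 1.32) for T47D-PA5 over T47D-VC1, and neither was called. The T47D-PA6 difference was -1.05 within the earlier run and 0.86 within the later one, and the T47D-PA5 difference was -0.42 and 1.01. Without the first T47D-VC1 array PDZK1 was called higher in T47D-PA5, at 0.99.

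Genes near PDZK1 on chromosome 1 also differed between the lines. The other 115 tested genes within 5 Mb of its probe had a median log2 fold change of 0.39 for T47D-PA5 over T47D-VC1 and of -0.56 for T47D-PA6 over T47D-PA5, and 40% of them were called lower in the latter, where 6.06% of all genes were. PDZK1 differed by -0.30 there (adjusted p = 0.65 in limma). Near IGFBP4 on chromosome 17, 10.9% of 257 genes were called lower in that comparison. The part of these neighbors in the results was not tested. A pseudogene copy of PDZK1 lies on the same chromosome, and whether this probe also reads RNA from it was not tested.

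CCND1, which encodes cyclin D1, had the narrowest range of the 10 genes. Over the 9 arrays its signal lay between 1891 and 2162. The log2 fold change was -0.02 (95% interval -0.21 to 0.17) for T47D-PA6 and 0.08 (-0.11 to 0.27) for T47D-PA5 over T47D-VC1, and the interval for T47D-PA6 over T47D-PA5 was -0.30 to 0.09. As a fold, the interval for T47D-PA6 over T47D-VC1 reached from 0.863 to 1.13. Within the earlier and the later run that difference was -0.01 and -0.02.

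MYB, a transcription factor gene under control of the estrogen receptor, read 9579.9, 8321 and 9062 in T47D-VC1, and 6084, 10719 and 10293 in T47D-PA5. It read 8321, 6503 and 6838 in T47D-PA6. The first T47D-PA5 array was the lowest of all 9 and the other 2 of that line were the highest. For T47D-PA6 it differed by -0.32 over T47D-VC1 (95% interval -0.81 to 0.17) and -0.29 over T47D-PA5, and neither was called. Within the earlier and the later run the T47D-PA6 difference over T47D-VC1 was -0.20 and -0.38, and that over T47D-PA5 was 0.45 and -0.66.

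The secreted proteins gave no call. IGFBP4, a binding protein of insulin-like growth factors, read 2936, 3055 and 2825 in T47D-VC1, 2148, 3054 and 2919 in T47D-PA5, and 2374, 2718 and 2667 in T47D-PA6. All T47D-PA6 arrays were below those of T47D-VC1, by -0.19 on the log2 scale (95% interval -0.51 to 0.14, adjusted p = 0.46 in limma), with -0.31 within the earlier run and -0.13 within the later one. SERPINA1, the gene of the protease inhibitor alpha-1 antitrypsin, read 29263, 19888 and 18962 in T47D-VC1, 15015 to 20433 in T47D-PA5, and 18961 to 22773 in T47D-PA6. The lines overlapped, with the first T47D-VC1 array highest and the first T47D-PA5 array lowest, and its log2 fold change was -0.13 (-0.57 to 0.31) for T47D-PA6 and -0.31 (-0.74 to 0.13) for T47D-PA5 over T47D-VC1. Within the earlier run these were -0.36 and -0.96, and within the later run -0.01 and 0.02.

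**Figure D4:**
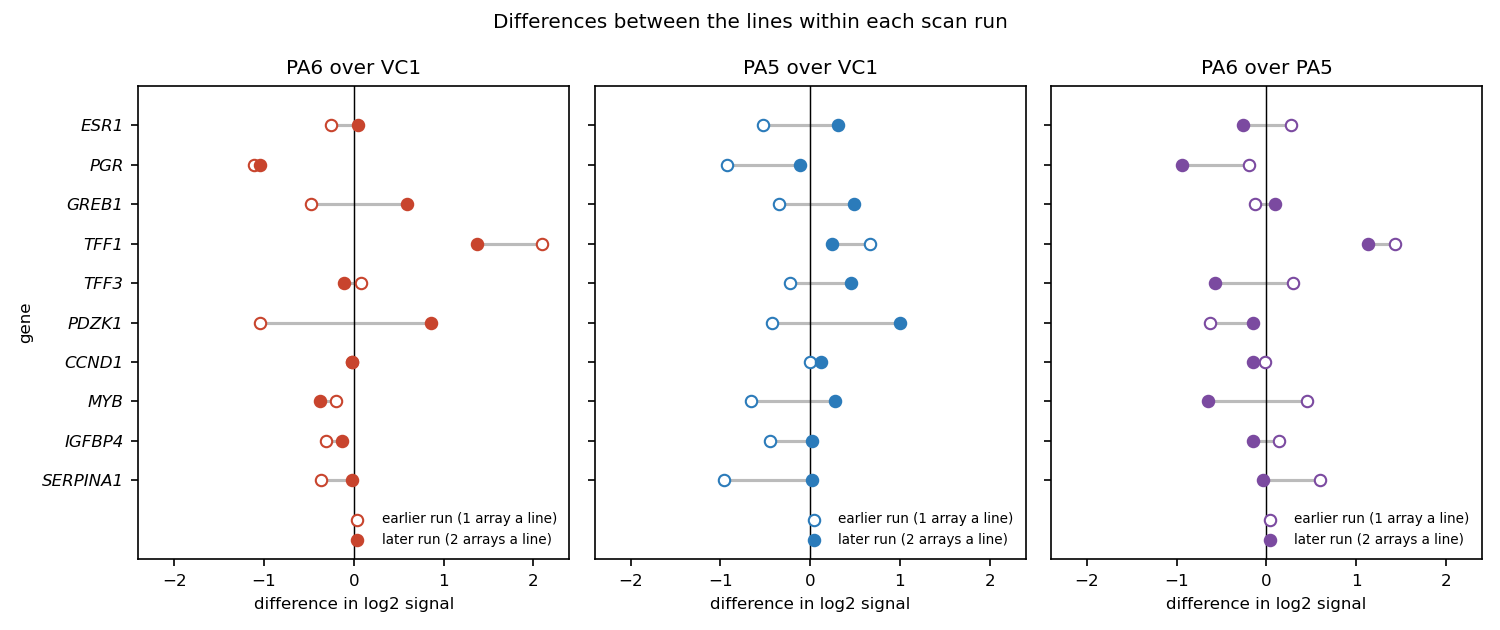
Difference in log2 signal between lines within the earlier scan run (open points, 1 array a line) and within the later run (filled points, 2 arrays a line), for each gene and comparison. PGR (-1.11 and -1.04) and TFF1 (2.10 and 1.38) lie on the same side of 0 in both runs for PA6 over VC1, whereas PDZK1 goes from -1.05 to 0.86 and GREB1 from -0.47 to 0.59.

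With replicates 2 and 3 alone, which make up the later run, more of the genes passed the test. Against T47D-VC1, limma then called GREB1, PDZK1 and TFF1 higher and MYB and PGR lower in T47D-PA6, in a fit where 16.6% of all genes were higher and 18.5% lower. In T47D-PA5 it called ESR1, GREB1, PDZK1 and TFF3 higher, where 10.6% of all genes were higher and 8.21% lower. Between T47D-PA6 and T47D-PA5 it called TFF1 higher and ESR1, MYB, PGR and TFF3 lower, where 16.2% were higher and 17.5% lower. The change of a difference from run to run was also fitted, as an interaction of line and run chosen after the values were seen. The earlier run has 1 array a line, so the spread in this fit comes from replicates 2 and 3 alone (3 residual degrees of freedom) and the earlier array is assumed to vary like them. With that limit it was called in 14 of the 30 cases (10 genes in 3 comparisons). Of all genes it was called in 10.1% for T47D-PA6 over T47D-VC1, 14.5% for T47D-PA5 over T47D-VC1 and 9.41% for T47D-PA6 over T47D-PA5. The comparisons share their arrays, so a single array enters more than 1 of them and the cases of a gene are not separate.

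Across the 9 arrays, which share their lines and runs, log2 signals of PGR and TFF1 had a Pearson r of -0.91, those of GREB1 and PDZK1 of 0.88 and those of ESR1 and TFF3 of 0.80. Of 18235 genes well above background on all 9 arrays, among those most like ESR1 were HOXB2 (r = 0.97) and THRA (0.96), which like ESR1 had T47D-PA6 over T47D-VC1 values near 0 (-0.11 and -0.07). Among those most like PGR were SPOP (0.99) and FOXN3 (0.98), at -0.69 and -0.66. These genes are described only by their likeness over the same arrays.

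Other genes of the pathway were read from 6 lists with 104 genes, of which 103 were on the array and 91 were tested. In T47D-PA6 over T47D-VC1, 9 were higher and 2 lower in limma, with a median log2 fold change of 0.02 beside -0.03 over all genes. In T47D-PA5 over T47D-VC1, 1 was higher and 0 lower. In T47D-PA6 over T47D-PA5, 6 were higher and 2 lower. The share called was 12.1% in T47D-PA6 and 1.1% in T47D-PA5 against T47D-VC1, and 8.79% between them, beside 10%, 1.67% and 9.71% of all genes, both directions together. The count for T47D-PA6 over T47D-VC1 was 3 to 6 genes when replicate 2 or 3 of any line was left out, and 20, 10 and 12 without the first replicate of T47D-VC1, T47D-PA5 and T47D-PA6. The share of all genes called moved likewise, from 3.45% to 6.48% in the former and 12.4%, 10.6% and 13.3% in the latter.

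Of 15 cofactors and pioneer factors of the estrogen receptor, all were tested and 1 was called, in T47D-PA6 against T47D-VC1, where it was higher. That was 6.67% of them beside 10% of all genes, both directions together. FOXA1, the pioneer factor, was at -0.26 (adjusted p = 0.18) and GATA3 at 0.18 (adjusted p = 0.57). Of 10 other steroid receptors and related proteins, 7 were tested. ESR2, the gene of estrogen receptor beta, was above background on 0 of 9 arrays. ESRRA, an orphan relative of the estrogen receptor, stood in T47D-PA6 above T47D-PA5 by 0.40 (SE 0.09, adjusted p = 0.031 in limma). This call was lost in 8 of the 22 alternative analyses. In T47D-PA6 over T47D-VC1 none of the 7 was called, where 10% of all genes were.

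Of 37 other estrogen-induced genes, 36 were tested, and against T47D-VC1 4 were higher and 0 lower in T47D-PA6, 11.1% of them beside 10% of all genes. CCN5, a secreted matricellular protein gene, read 584, 532 and 507 in T47D-VC1, 441, 985 and 1019 in T47D-PA5, and 1889.9, 7351 and 7716 in T47D-PA6. T47D-PA6 exceeded T47D-VC1 8.80-fold (log2 3.14, SE 0.54, adjusted p = 0.011), with every T47D-PA6 array above all others and the first well below the other 2. It was 3.24-fold within the earlier run and 14.5-fold within the later one, and without the first T47D-PA6 array it was 13.9-fold. The unpaired test of the methods gave an adjusted p of 0.11. RET, a receptor tyrosine kinase gene, was 2.14-fold higher in T47D-PA6 (adjusted p = 0.011) and 1.95-fold higher in T47D-PA5 (adjusted p = 0.049), the only gene of the 6 lists called in T47D-PA5. FHL2, a coregulator gene, was 2.04-fold higher in T47D-PA6 (adjusted p = 0.049), with a log2 difference of 0.0060 within the earlier run and 1.54 within the later one. The calls of FHL2 in T47D-PA6 and of RET in T47D-PA5 were each lost in 12 of the 22 alternative analyses.

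Between T47D-PA6 and T47D-PA5, 3 of these 36 genes were higher and 1 lower, 11.1% of them beside 9.71% of all genes. CTSD, the gene of the lysosomal protease cathepsin D, was 1.88-fold higher in T47D-PA6 (adjusted p = 0.0053) and CCN5 6.23-fold higher (adjusted p = 0.020), or 9.87-fold without the first T47D-PA6 array. ANXA9, an annexin gene on chromosome 1, was 1.86-fold lower (adjusted p = 0.014). The call of CTSD was kept in all 22 alternative analyses, that of CCN5 was lost in 8 and that of ANXA9 in 5. Against T47D-VC1, CTSD was at 0.37 in T47D-PA6 and -0.54 in T47D-PA5, neither called. The median of the list was 0.06 for T47D-PA6 over T47D-VC1 and 0.07 over T47D-PA5, while single genes ranged from -0.85 to 3.14 in the first of these.

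Of 13 progestin-induced genes, 12 were tested and 1 was called. In T47D-PA6 that was 8.33% of them, beside 10% of all genes against T47D-VC1 and 9.71% against T47D-PA5. WNT4, the gene of a secreted ligand that acts below the progesterone receptor in the mammary gland, read 64.8, 84.5 and 84.7 in T47D-VC1, 55.4, 77.4 and 66.0 in T47D-PA5, and 121, 131 and 148 in T47D-PA6. T47D-PA6 exceeded T47D-VC1 1.72-fold (adjusted p = 0.023) and T47D-PA5 2.02-fold (adjusted p = 0.0084). The first of these calls was lost in 6 of the 22 alternative analyses, among them leaving out replicate 2 or 3 of T47D-VC1 or T47D-PA6, and the second in 1. FKBP5, a steroid-induced co-chaperone gene, was at 0.66 in T47D-PA5 over T47D-VC1 (adjusted p = 0.052).

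Of 14 genes of estrogen synthesis and inactivation, 10 were tested. HSD17B14, which encodes an enzyme that oxidizes estradiol, was 1.68-fold higher in T47D-PA6 against T47D-VC1 (adjusted p = 0.038), and the oxidizing HSD17B4 was 1.35-fold lower (adjusted p = 0.049). The HSD17B14 signal was dim, at 21.4 to 31.4 in T47D-VC1, 34.6 to 47.4 in T47D-PA5 and 43.3 to 52.3 in T47D-PA6. The lowest signal marked well above background was 9.59 to 15.2, depending on the array. HSD17B14 was not called between T47D-PA6 and T47D-PA5 (adjusted p = 0.60 in limma). HSD17B7, which encodes a reducing enzyme that also acts in cholesterol synthesis, lies on chromosome 1, like PDZK1 and ANXA9. In T47D-PA6 it was 1.70-fold lower than in T47D-VC1 (adjusted p = 0.049 in limma) and 2.48-fold lower than in T47D-PA5 (adjusted p = 0.0075). The part of its neighbors in this was not tested. Against T47D-VC1 the calls of HSD17B14 and HSD17B4 were each lost in 12 of the 22 alternative analyses and that of HSD17B7 in 11. Its signal was 221 to 351 in T47D-VC1, 325 to 485 in T47D-PA5 and 157 to 180 in T47D-PA6, so that T47D-PA6 did not overlap the others. CYP19A1, the aromatase gene, was above background on 1 of 9 arrays and was not tested.

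Of 15 paralogs and partners of the genes described here, 11 were tested and 2 were called higher for T47D-PA6 over T47D-VC1. That was 18.2% of them beside 10% of all genes, both directions together. SERPINA3, a relative of SERPINA1 that encodes alpha-1 antichymotrypsin, read 328, 235 and 203 in T47D-VC1, 503, 932 and 1049 in T47D-PA5, and 3565, 1137 and 1217 in T47D-PA6. T47D-PA6 exceeded T47D-VC1 6.81-fold (adjusted p = 0.0096), and the lines did not overlap. It was 10.9-fold within the earlier run and 5.38-fold within the later one. T47D-PA5 was 3.16-fold above T47D-VC1 (adjusted p = 0.13) and T47D-PA6 2.16-fold above T47D-PA5 (adjusted p = 0.18 in limma), neither called. The latter difference was 7.09-fold within the earlier run and 1.19-fold within the later one. CDK6, a kinase partner of cyclin D1, was 1.64-fold higher in T47D-PA6 against T47D-VC1 (adjusted p = 0.034) and 1.63-fold higher against T47D-PA5 (adjusted p = 0.035), and each of these calls was lost in 10 of the 22 alternative analyses. TFF2, the third trefoil gene, was at 1.08 in T47D-PA6 and 1.42 in T47D-PA5 over T47D-VC1, neither called (adjusted p = 0.082 and 0.086).

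**Figure D5:**
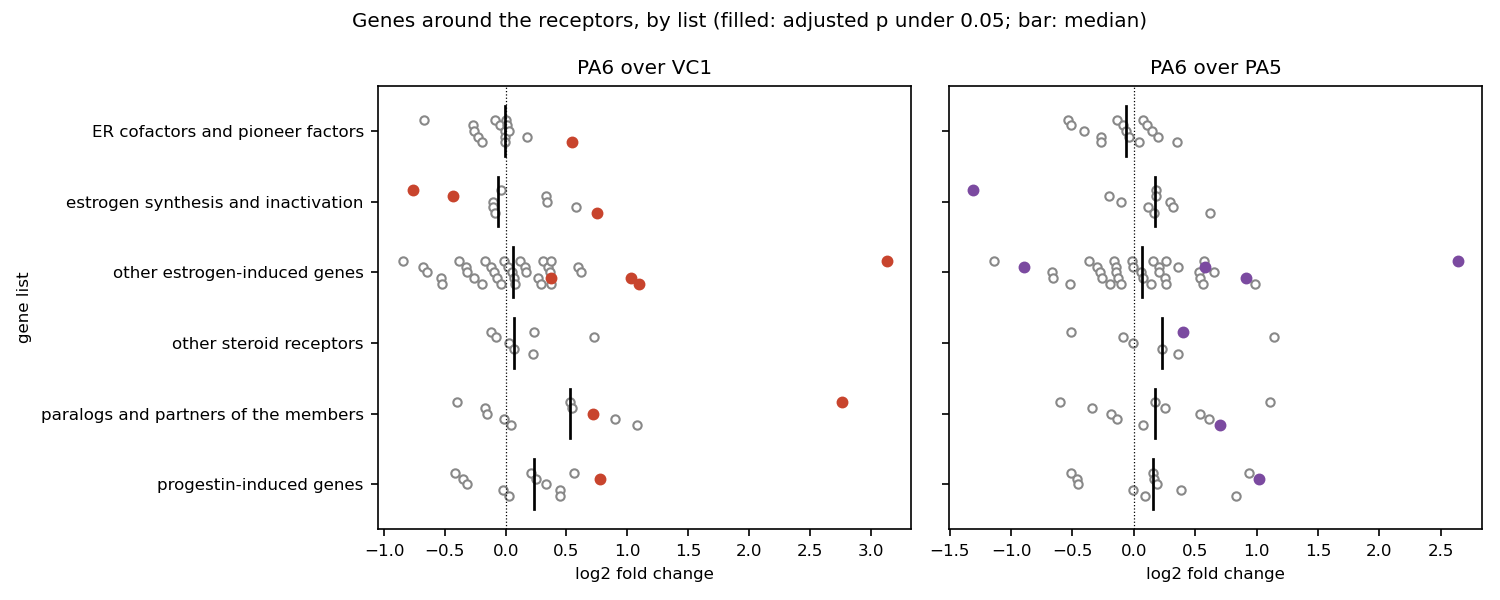
Log2 fold change of the 91 tested genes of the 6 lists in PA6 over VC1 and in PA6 over PA5. Filled points have an adjusted p under 0.05 in limma and the black bars are the medians. Most genes lie within 1 of 0, with CCN5 (3.14) and SERPINA3 (2.77) far to the right in PA6 over VC1 and HSD17B7 (-1.31) far to the left in PA6 over PA5.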

How the data were processed

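Total RNA of 3 T47D lines was hybridized to SurePrint G3 Human Gene Expression v3 arrays, 1 color, 3 arrays a line. Per the file headers, the authors deposited background-subtracted intensity for each spot from Feature Extraction 10.7.1.1 (9.5.1.1 in the submitters' processing notes), and a table of intensities quantile-normalized between arrays. Outlier spots (46 to 117 an array) were dropped, log2 values averaged per probe and quantile-normalized. Of 58201 probes, the 26171 that passed the background limit on all 3 arrays of a line were tested, and 0 spots were saturated. Current symbols were found for 34966 probes. Of these, 31127 already carried one, 3343 were renamed by accession and 496 by synonym. The lines were compared in 1 fit over 9 arrays with limma 3.58.1 (R 4.3.3), 6 residual degrees of freedom, Benjamini-Hochberg adjustment over 20106 genes and a threshold of 0.05. The fit was tested on simulated data. The number of arrays limits the precision. The second T47D-VC1 and T47D-PA5 replicates shared slide 2 and the remaining later arrays slide 3.

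The genes and lists were chosen with earlier results of these data known. The rule named all 10 genes, the 3 genes of each list with the largest change among those called in T47D-PA6 over T47D-VC1 and over T47D-PA5, and the 3 genes most correlated with ESR1 and PGR. Some of these, and some markers, are not reported here. COL1A1, FOXA1, GATA3, ESR2, FKBP5, CYP19A1 and TFF2 were named after their values were seen. The difference between scan runs was fitted as an interaction of line and run, chosen after the values were seen. The alternatives were a 75th percentile shift, normexp with an offset of 50, the values the authors normalized, 2 other filters, blocks for slide and replicate number, the later run alone, each array left out, an intensity trend, the methods' unpaired test, the compared lines alone, and 2 other ways to read a gene from its probes. For array genes the study itself used only fold limits, above 2 or below 0.6. Its unpaired t-test was named for comparing datasets in general, and the Benjamini-Hochberg adjustment of it was added here.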

Additional observations from a re-analysis of the deposited data

Results flagged for a closer look

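In 14 of 30 cases the difference between lines in a gene was itself different between the scan runs, by an interaction of line and run in limma at an adjusted p under 0.05. This test was chosen after the values were seen. The earlier run has a single array a line, so the spread in the test comes from replicates 2 and 3, and the earlier array is assumed to vary like them. Over all genes the interaction was called in 10.1% of genes for T47D-PA6 over T47D-VC1, 14.5% for T47D-PA5 over T47D-VC1 and 9.41% for T47D-PA6 over T47D-PA5. The values below are the later minus the earlier difference on the log2 scale, and what sets the runs apart was not tested.

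For T47D-PA6 over T47D-VC1 the value was 1.91 for PDZK1 (adjusted p = 0.0080), 1.07 for GREB1 (adjusted p = 0.027) and -0.72 for TFF1 (adjusted p = 0.026), whose difference kept its sign in both runs. For PGR it was 0.06 (adjusted p = 0.68), which was not called.

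For T47D-PA5 over T47D-VC1 the values were 1.43 for PDZK1, 0.98 for SERPINA1, 0.93 for MYB, 0.84 for GREB1, 0.83 for ESR1, 0.81 for PGR and 0.68 for TFF3, with limma adjusted p-values from 0.012 to 0.036. All 7 had a lower difference in the earlier run.

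For T47D-PA6 over T47D-PA5 the values were -1.11 for MYB, -0.87 for TFF3, -0.75 for PGR and -0.63 for SERPINA1, with adjusted p-values from 0.015 to 0.039. CCND1 and IGFBP4 were not called in any of the 3 comparisons.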

How the results depend on the processing

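Across 22 alternatives, 1322 of 1518 log2 fold changes of the genes described and 13 list genes kept their direction and their side of the threshold, 124 lost a call, 34 gained one and 38 changed sign, 0 of these with a call. PGR and TFF1 were called in T47D-PA6 over T47D-VC1 under all 22. The cause of the other shifts was not tested. The sources do not say whether a replicate number marks a shared culture, and the first replicates shared a slide and a scan run. Deviations of arrays with the same number correlated at 0.21 to 0.34 for replicate 1 and at 0.10 to 0.24 for replicates 2 and 3. Of the 9 arrays, 4 were most like their own number, among arrays of the other lines. Deviations were taken from the mean of each line, so a shift of replicate 1 also enters replicates 2 and 3. Correlations between different numbers are not given, so these values cannot tell whether the numbers are paired. With the replicate number as a block, the call of PGR in T47D-PA6 over T47D-PA5 was lost (1 of 10 genes called) and 2 list genes were called in T47D-PA5 over T47D-VC1, in place of 1. Of all genes, 12.1% and 2.44% were called in these comparisons.

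With replicates 2 and 3 alone, 5, 4 and 5 of the 10 genes were called in T47D-PA6 over T47D-VC1, T47D-PA5 over T47D-VC1 and T47D-PA6 over T47D-PA5, and 50, 35 and 47 list genes. Of all genes, 35.1%, 18.8% and 33.7% were then called. In T47D-PA6 over T47D-PA5, 1 of the 10 genes was called with no filter, with the slide block and with the compared lines alone, and 0 with the methods' t-test. The shares of all genes called there were 2.91%, 9.73%, 8.39% and 3.93%. The t-test called 1, 0 and 2 list genes in the 3 comparisons, and 2.15%, 0.194% and 3.93% of all genes. List genes called were 5 and 13 with normexp in T47D-PA5 over T47D-VC1 and T47D-PA6 over T47D-PA5, 5 and 5 with no filter in the comparisons of T47D-PA6, and 5 and 0 with the compared lines alone against T47D-VC1. In the same order, 2.03% and 11.2%, 2.96% and 2.91%, and 5.7% and 1.22% of all genes were called. In T47D-PA5 over T47D-VC1 the list genes called were 0 with the values the authors normalized, 2 with the strict filter, 2 with the slide block and 4 with the intensity trend. Of all genes, 1.67%, 1.59%, 3.02% and 2.38% were called with these. Leaving out each array in turn gave 2 to 3, 0 to 1 and 1 to 2 of the 10 genes and 3 to 20, 0 to 4 and 3 to 17 list genes. The shares of all genes called ranged from 3.45% to 13.3%, 0.496% to 2.85% and 3.53% to 14.3%.

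Signs turned as follows, on the log2 scale. The 75th percentile shift gave TFF3 0.0225 in T47D-PA6 over T47D-VC1, MYB 0.0054 in T47D-PA5 over T47D-VC1 and GREB1 -0.023 in T47D-PA6 over T47D-PA5. The slide block gave TFF3 0.0058 and GREB1 -0.0472 in these comparisons. The later run alone gave ESR1 0.0471 in T47D-PA6 over T47D-VC1, MYB 0.27, IGFBP4 0.023, SERPINA1 0.0204 and CDK6 -0.18 in T47D-PA5 over T47D-VC1, and SERPINA1 -0.0345 in T47D-PA6 over T47D-PA5. The mean of a gene's probes gave ESR1 0.14 and TFF3 0.15 in T47D-PA6 over T47D-VC1, ESR1 -0.086 in T47D-PA5 over T47D-VC1, and ESR1 0.22 and RET -0.23 in T47D-PA6 over T47D-PA5. Without single arrays the ranges were, for T47D-PA6 over T47D-VC1, -0.17 to 0.15 for ESR1, -0.39 to 0.22 for TFF3, -0.25 to 0.0679 for SERPINA1, -0.0448 to 0.68 for PDZK1 and -0.045 to 0.0046 for CCND1. For T47D-PA5 over T47D-VC1 they were -0.18 to 0.23 for MYB, -0.17 to 0.13 for CDK6, -0.092 to 0.23 for ESR1 and -0.23 to 0.0233 for IGFBP4, and for T47D-PA6 over T47D-PA5 -0.0489 to 0.067 for GREB1 and -0.21 to 0.0443 for IGFBP4.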
